A study of Gallus gallus with 25 samples.

Results

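miR-451 is the microRNA that red blood cells hold in large amounts, and the arrays described here read it with a pair of probes in the gonads of chicken embryos. The members are the mature probes named dre-miR-451 (for the zebrafish miRNA) and hsa-miR-451 (for the human one), chosen by name alone, and they are 2 of the 657 mature probes on each array. The array holds a further probe related by name, gga_candidate_dre_451, a chicken candidate of the array maker, which is described beside them and is no member. The study hybridised small RNA from chicken embryonic gonads, pooled by sex, to 25 one-colour arrays. They cover male and female gonads at embryonic day 5.5 (Hamburger-Hamilton stages 27 to 28; 5 male and 4 female arrays), day 6.5 (stages 29 to 30; 5 male and 3 female) and day 9.5 (stages 35 to 36; 4 male and 4 female). The labels name no strain, treatment or genetic change in any group.

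A microRNA is a short RNA that guides a silencing complex to messenger RNAs, mainly by pairing through its seed, bases 2 to 8 from the 5′ end. In vertebrates miR-451 is made with miR-144 from one primary transcript in developing red blood cells, under the blood factor GATA1. It is cut by Argonaute 2 in place of Dicer, and in zebrafish and mouse it is needed for normal maturation of red blood cells. Birds keep a nucleus in their red blood cells, and those of an embryo circulate through every organ that has vessels, the gonads included. The arrays measured RNA of whole gonads, so more cells that hold miR-451 and more miR-451 per cell cannot be told apart.

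The probe sequences are shown because they decide what each probe can bind, and because the mismatch partners serve below as each probe's own background. The first capital letter marks the base by which the human probe is longer than the zebrafish one, and in the other lines capitals mark the bases that differ from the member (for the candidate, from dre-miR-451). All are printed from the 5′ end.
dre-miR-451: aactcagtaatggtaacggttt
hsa-miR-451: Aaactcagtaatggtaacggttt
dre-miR-451 mismatch partner: aactcGgtaatggtaaGggttt
hsa-miR-451 mismatch partner: aaactcGgtaatggtaaGggttt
gga_candidate_dre_451: aGTtTagtaatggtaacggttC
RNA complement of the dre-miR-451 probe, seed in capitals: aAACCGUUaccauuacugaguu
The members are the same sequence apart from that 1 base, so they share their target and are not independent measurements of different RNAs. Counted from the 5′ end of the probe, the partner of dre-miR-451 carries A6G and C17G, and that of hsa-miR-451 carries A7G and C18G. The candidate differs from dre-miR-451 at 4 positions, A2G, C3T, C5T and T22C, and the complement of its probe has the same seed. No other mature probe on the array has this seed, so the 3 probes form a seed group of their own.

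In the chicken genome (RefSeq annotation, build GRCg7b) the miR-451 gene is listed as MIR451B, with gga-mir-451 among its synonyms, at chr19:6347732-6347800, which is 69 bases long. It overlaps 1 other annotated gene, LOC121107271, and MIR144, the gene of miR-144, begins 87 bases beyond its end, at chr19:6347887-6347971. The array tables give probe sequences and no coordinates. The dye used here attaches to guanine, per the labels' protocols. The complement of either member holds 3 guanines against a median of 5 over the mature probes, and 5.18% of the mature probes have fewer. A level of miR-451 is therefore set only against levels of the same probe, or against its mismatch partner on the same array.

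The arrays carry 1 of 2 chip numbers, per the labels. Chip 4011845 holds 18 arrays, with every E9.5 array among them and a single female E6.5 array, and chip 50636 holds 7 arrays of E5.5 and E6.5. On chip 4011845 the array medians ran from 74.5 to 207 intensity units, scan exposures from 0.5 to 2 s, and 52 to 178 mature probes per array exceeded the negative controls. The brightest array median, 207, and one of the lowest numbers of detected probes, 64, belonged to the female E6.5 array. Gonads of E9.5 were sexed by eye and pooled at dissection, and those of E5.5 and E6.5 were held as single lysates until PCR sexing, so handling and stage cannot be told apart. The arrays come from pools of embryos, and the labels do not say whether arrays numbered 1-1 and 1-2 share a pool, so the p-values below reflect differences among arrays that may in part be technical. As a check of the tissue label, miR-202, a gonad miRNA of vertebrates, exceeded the negative controls on 16 (dre-miR-202) and 14 (gga-miR-202) of the 18 arrays, while the probes hsa-miR-202 and mmu-miR-202 did so on 2 and 3 and gga-miR-202*, for the other arm, on 0. The complement of gga-miR-202* holds 1 guanine for the dye, against 8 or 9 for the other miR-202 probes, so its count does not show that this arm was absent.

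On chip 4011845 the foreground intensity of dre-miR-451 in male E5.5 gonads was 143 in replicate 2, 244 in replicate 3 and 198 in replicate 6. In female E5.5 gonads it was 139 in replicate 3, 222 in replicate 4 and 225 in replicate 5. Only male replicate 3 among these 6 arrays exceeded the 95th percentile of its 7 negative controls, the level used here to call a probe detected. That limit ran from 216 to 297 units on the E5.5 arrays. In male E6.5 gonads the intensity was 181 in replicate 2, 232 in replicate 3 and 283 in replicate 6, and in the female E6.5 array it was 261. Male replicates 3 and 6 were detected, while the female array was not, since its own negative controls put the limit at 383. In male E9.5 gonads the intensity was 472 in replicate 1-1, 450 in replicate 1-2, 281 in replicate 2 and 212 in replicate 3. In female E9.5 gonads it was 576 in replicate 1-1, 499 in replicate 1-2, 353 in replicate 2 and 323 in replicate 3. All 8 arrays of E9.5 were detected, and in both sexes replicates 1-1 and 1-2 were brighter than replicates 2 and 3. Their limits were mostly lower than at E5.5, from 103 to 242 units, so the counts of detected arrays also depend on the limits. Male E9.5 replicate 3 was detected at 212 with a limit of 118, and Female E5.5 replicate 5 was not at 225 with a limit of 258.

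Those raw intensities mix the probe's signal with each array's brightness, so levels were compared after background correction, log2 and quantile normalisation of the 18 arrays. The normalised log2 level of dre-miR-451 was highest in female E9.5 gonads (8.74 ± 0.51, SD, n = 4), followed by male E9.5 (8.10 ± 0.42, n = 4) and male E6.5 (7.32 ± 0.56, n = 3). Female E5.5 (7.01 ± 0.11, n = 3), male E5.5 (6.76 ± 0.45, n = 3) and the single female E6.5 array (6.75) came last. Both E9.5 groups lay above every E5.5 array of either sex, since the lowest E9.5 array stood at 7.75 and the highest E5.5 array at 7.27. Within a sex, E5.5 and E9.5 arrays did not overlap for 38% of the 163 tested probes in females and 17.8% in males. The share across both sexes was not counted. The sexes at E9.5 overlapped. The male E6.5 arrays ran from 6.68 to 7.66, across the whole female E5.5 range, and no pair of neighbours in this order that was tested passed the test.

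**Figure D1:**
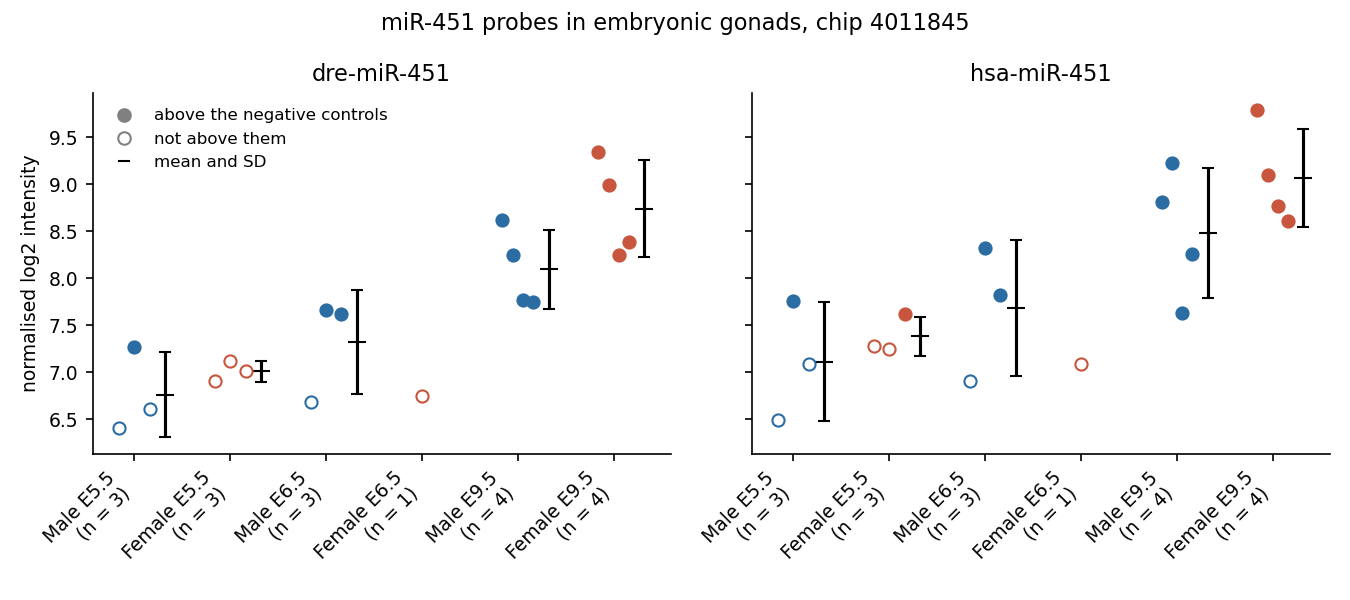
Normalised log2 intensity (y axis) of both miR-451 probes on the 18 arrays of chip 4011845, by sex and embryonic day. Each point is 1 array, filled where it exceeded the negative controls, with the group mean and SD beside it for groups of 3 or 4. For dre-miR-451 all 8 arrays of E9.5 lie between 7.75 and 9.34 and all 6 arrays of E5.5 between 6.41 and 7.27.

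The hsa-miR-451 probe, which sits on a single spot, gave the same order of group means. Its intensity at E5.5 was 147, 301 and 247 in male replicates 2, 3 and 6 and 167, 304 and 237 in female replicates 3, 4 and 5. At E6.5 it was 198, 368 and 346 in male replicates 2, 3 and 6 and 299 in the female array. At E9.5 it was 501, 943, 265 and 296 in male replicates 1-1, 1-2, 2 and 3, and 719, 564, 491 and 357 in the females of the same numbers. Female E9.5 again had the highest normalised level, 9.07 ± 0.52 (SD, n = 4), and male E9.5 the next, 8.48 ± 0.69 (n = 4), with male replicate 2 at 7.64 inside the E5.5 range, which reached 7.76. The probe was detected on 12 of the 18 arrays, which are all 8 of E9.5, 2 of 3 male E6.5 and 1 of 3 in each sex at E5.5.

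**Figure D2:**
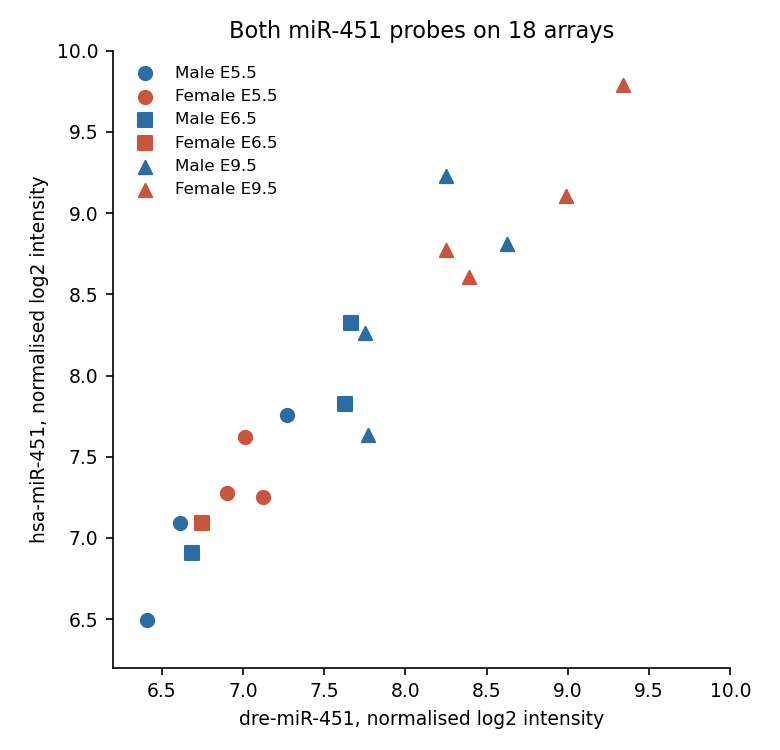
Normalised log2 intensity of hsa-miR-451 (y axis) against dre-miR-451 (x axis) on the 18 arrays of chip 4011845, with colour for sex and symbol for embryonic day. The points lie along one rising band with Pearson's r of 0.959, the E9.5 arrays at the upper end.

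Across the 18 arrays the levels of the members had a Pearson's r of 0.959 and a Spearman's rho of 0.948, each with a two-sided permutation p of 1e-05, the smallest that 100000 permutations can give, and the adjusted p over the 2 measures compared is the same. Without the 2 arrays farthest from the median of dre-miR-451, r was 0.942. Part of this follows from the stages, but over the 17 arrays of groups with at least 2 arrays the deviations from the group means still had an r of 0.859. Since the probes differ by 1 base and were read on the same hybridisations, this describes how repeatable the signal is within an array. The 2 spots of dre-miR-451 can be recovered from the deposited median and standard deviation. They differed most in male E9.5 replicates 1-2 (310 and 590) and 1-1 (374 and 570), and least in female E9.5 replicate 2 (353 and 354). Within groups the residual SD was 0.44 log2 units for dre-miR-451 and 0.59 for hsa-miR-451, against a median of 0.42 over the tested probes.

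Both miR-451 probes rose between E5.5 and E9.5 when the sexes were averaged. The mean normalised level of dre-miR-451 went from 6.89 to 8.42, a difference of 1.53 ± 0.23 (SE, log2), which is 2.89-fold with a 95% confidence interval of 2.06 to 4.06 and a limma adjusted p of 0.000143. That of hsa-miR-451 went from 7.25 to 8.78, a difference of 1.53 ± 0.29 or 2.88-fold (1.88 to 4.41), with a limma adjusted p of 0.00118. Since dre-miR-451 was detected on 1 and hsa-miR-451 on 2 of the 6 arrays of E5.5, both folds are set against levels mostly not above the negative controls. Of the 163 probes detected on at least 3 of these arrays and so tested, 39 (23.9%) were called in this comparison, 30 of them (18.4%) higher and 9 (5.52%) lower at E9.5. That count was 24 with arrays 1-1 and 1-2 merged, and leaving out 1 array moved it between 18 (without Male E5.5 replicate 2) and 53. The median difference over all tested probes was −0.02. An exact permutation test, two-sided and regrouping arrays within each sex, gave dre-miR-451 a p of 0.000816, the smallest its 1225 regroupings allow, and hsa-miR-451 a p of 0.00245, or 0.00327 and 0.00653 after Benjamini-Hochberg adjustment over the 8 permutation tests run. Leaving out any 1 array kept both calls, with dre-miR-451 between 1.43 and 1.65. The series table deposited by the authors, from which a constant had been subtracted on each array, gave larger differences, 3.18 for dre-miR-451.

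**Figure D3:**
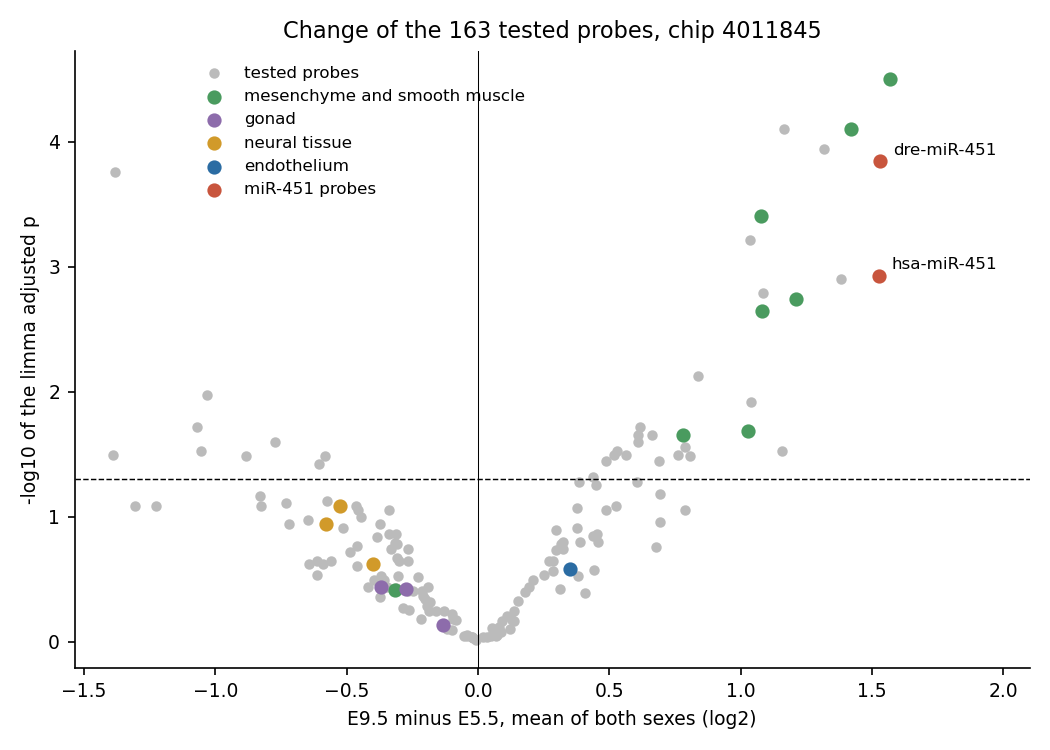
Difference between E9.5 and E5.5 averaged over the sexes (x axis, log2) against the −log10 of the limma adjusted p (y axis) for the 163 tested probes of chip 4011845, with the miR-451 probes and the marker lists in colour. The dashed line is an adjusted p of 0.05. Both miR-451 probes lie at 1.53, near the right edge, beside 7 probes of the mesenchyme and smooth muscle list that also pass the line.

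In female gonads the change from E5.5 to E9.5 was called for both probes. By the means, dre-miR-451 was at least 2.42-fold higher at E9.5, a bound because no female E5.5 array read it above the negative controls. Female E5.5 replicate 4 came closest, at 222 units against a limit of 223. For this bound each dim array was set to the higher of the probe's own level and the lowest level among probes above the controls. Sampling error was left out of this bound, so the true fold may lie below it. The fitted difference of the measured means, 7.01 and 8.74, was 1.73 ± 0.33 (SE, log2; limma adjusted p 0.00337). That is 3.31-fold with an interval of 2.05 to 5.35, whose lower end lies below the bound. hsa-miR-451, detected on 1 of the 3 female E5.5 arrays, rose by 1.68 ± 0.41 (limma adjusted p 0.0146). The female E5.5 and E9.5 arrays did not overlap for either probe, which held for 62 of the 163 tested probes (38%), and 13 probes (7.98%) were called. The call of hsa-miR-451 was lost without Female E5.5 replicate 3 (1.64, limma adjusted p 0.0632) or replicate 5 (1.60, limma adjusted p 0.0525).

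In male gonads dre-miR-451 rose by 1.33 ± 0.33 (SE, log2; limma adjusted p 0.0143), a 2.52-fold difference with an interval of 1.56 to 4.07, against male E5.5 arrays of which 1 of 3 read it above the negative controls. The male E5.5 and E9.5 arrays did not overlap for this probe, as for 29 of the 163 (17.8%), and 11 probes (6.75%) were called. hsa-miR-451 differed by 1.37 ± 0.41 and did not pass (limma adjusted p 0.0536), with overlapping arrays. The dre-miR-451 call was lost without Male E5.5 replicate 2 (1.17, limma adjusted p 0.0825), Male E5.5 replicate 6 (1.26, limma adjusted p 0.0563) or Male E9.5 replicate 1-1 (1.15, limma adjusted p 0.0557). It was also lost with the values of the series table, where 1 of the 3 male E5.5 values is blank (3.18, limma adjusted p 0.0674). With the replicate number as a block it fell just short (0.99, limma adjusted p 0.0503), though these groups share only 2 replicate numbers. hsa-miR-451 in males passed without any 1 of 5 arrays, which were Male E5.5 replicate 3, Male E6.5 replicate 2, Male E6.5 replicate 3, Male E9.5 replicate 2 and Female E9.5 replicate 1-1, with differences of 1.37 to 1.69 (limma adjusted p 0.0187 to 0.0437).

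The male difference could not be placed before or after E6.5. From E5.5 to E6.5 dre-miR-451 differed by 0.56 ± 0.35 (limma adjusted p 0.952) and hsa-miR-451 by 0.57 ± 0.44 (limma adjusted p 0.998). Across the tested probes limma called 0 of 163 (0%), with 3 at an unadjusted p under 0.05. That fit takes the arrays as unpaired, although equal replicate numbers deviated together. In replicates 2, 3 and 6 dre-miR-451 went from 6.41 to 6.68, 7.27 to 7.66 and 6.61 to 7.62. The levels of hsa-miR-451 there went from 6.49 to 6.91, 7.76 to 8.33 and 7.09 to 7.83. Neither member passed under any of 9 alternatives, the replicate block among them (lowest limma adjusted p 0.614 and 0.686). From E6.5 to E9.5 dre-miR-451 differed by 0.77 ± 0.33 (interval 0.08 to 1.47, limma adjusted p 0.333) and hsa-miR-451 by 0.80 ± 0.41 (limma adjusted p 0.491). Only dre-miR-199* and gga-miR-199a were called there, 2 of 163 (1.23%), and fitting all 25 arrays with the chip as a term brought dre-miR-451 past the threshold (0.87, limma adjusted p 0.0443, 4.69% of the tested probes called).

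In female gonads the steps around E6.5 rest on 1 array, which in the fit is assumed to vary like the other groups. From E5.5 to E6.5 dre-miR-451 differed by −0.26 ± 0.49 (limma adjusted p 0.771) and hsa-miR-451 by −0.30 ± 0.62 (limma adjusted p 0.792), with 0 of 163 probes (0%) called by limma and 6 at an unadjusted p under 0.05. From E6.5 to E9.5 dre-miR-451 rose by 1.99 ± 0.48 and hsa-miR-451 by 1.98 ± 0.60, both at a limma adjusted p of 0.0475, among 15 called probes (9.20%). By the means, as bounds against that 1 array, these are at least 1.74-fold for dre-miR-451 and at least 2.19-fold for hsa-miR-451. Sampling error was left out of these bounds too. The median of all tested probes moved by 0.27 in the same comparison, and by 0.05 with 75th percentile scaling, under which neither call held (1.67, limma adjusted p 0.0728, and 1.60, limma adjusted p 0.104). The dre-miR-451 call held without Male E5.5 replicate 2 or 3, Male E6.5 replicate 2 or 6, or Female E9.5 replicate 2 (1.98 to 2.16), and was lost without any 1 of the other 12 arrays (1.79 to 2.12, limma adjusted p 0.0514 to 0.0813). The hsa-miR-451 call held for the same arrays except Male E6.5 replicate 6, and was lost without any 1 of the other 13 (1.74 to 2.14, limma adjusted p 0.0538 to 0.0859). The female E6.5 array also had the highest summed level of the neural miRNA list (2266 normalised intensity units over 8 probes, against 703 to 1174 in female E9.5), and dre-miR-124 and mmu-miR-124a, neuronal miRNAs, were called lower at E9.5. The part of the brightness and the neural miRNAs in this comparison was not tested.

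A sex difference in miR-451 did not pass the test at any stage. The comparison at E6.5 rests on 1 female array, the one with the brightest median on this chip. At E9.5 the female mean of dre-miR-451 was higher, with a male minus female difference of −0.64 ± 0.30 (SE, log2; 95% confidence interval −1.28 to −0.004), an unadjusted p of 0.0486 and a limma adjusted p of 0.722. For hsa-miR-451 the difference was −0.58 ± 0.38 (interval −1.39 to 0.22, limma adjusted p 0.794). The exact two-sided permutation p for the sexes at E9.5 was 0.143 for dre-miR-451 and 0.286 for hsa-miR-451 (0.229 and 0.327 adjusted over the 8 tests), where the smallest possible is 0.0286. That test takes the arrays as unpaired, although equal replicate numbers deviated together at E9.5. Within the 4 pairs dre-miR-451 was lower in males in every one, by −0.71, −0.74, −0.48 and −0.64 for replicates 1-1, 1-2, 2 and 3, and hsa-miR-451 in 3 of 4 (−0.98, 0.12, −1.14 and −0.34). The share of tested probes with the same sign in all 4 pairs was not counted. An exact two-sided test that changes signs within pairs, added after the data were seen, gave a p of 0.125 and 0.25, and with 4 pairs it cannot go below 0.125. Arrays 1-1 and 1-2 may share a pool, so the 4 pairs it counts may not be independent. With the replicate number as a block the limma adjusted p was 0.349 for dre-miR-451 and 0.605 for hsa-miR-451. limma called 0 of 163 probes (0%) between the sexes at E9.5, with 11 at an unadjusted p under 0.05. The intervals reach a 2.43-fold higher female level of dre-miR-451, so these arrays do not show that the sexes were alike.

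At E5.5 the male minus female difference was −0.25 ± 0.35 for dre-miR-451 and −0.27 ± 0.44 for hsa-miR-451 (limma adjusted p 0.918 for both), and at E6.5 it was 0.57 ± 0.49 (limma adjusted p 0.689) and 0.60 ± 0.62 (limma adjusted p 0.726). limma called 0 of 163 probes (0%) at either stage, with 3 and 10 at an unadjusted p under 0.05. The rise from E5.5 to E9.5 was larger in females by 0.39 log2 units on average, but the difference between the sexes in that change, −0.39 ± 0.46 for dre-miR-451 (interval −1.37 to 0.58) and −0.31 ± 0.58 for hsa-miR-451 (interval −1.54 to 0.92), did not pass (limma adjusted p 0.989 for both). limma called 0 of 163 probes (0%) for it, with 3 at an unadjusted p under 0.05. A call in 1 sex and not in the other for hsa-miR-451 thus does not show a difference between the sexes. Nor do these intervals show that the change was alike in both.

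The mismatch partners give a reading within each array, taken without normalisation between arrays. No background was subtracted, so an array's background stays in both terms and a brighter array lowers the ratio for the same signal. The array medians averaged 136 over the 6 arrays of E5.5 and 113 over the 8 of E9.5. The part of this brightness in the ratios was not tested. On all 18 arrays of chip 4011845 both miR-451 probes were brighter than their partners, and no partner was detected on any of them. The ratio of dre-miR-451 to its partner was 1.16, 1.76 and 1.39 in male E5.5 replicates 2, 3 and 6 and 1.51, 1.57 and 1.42 in female replicates 3, 4 and 5. At E6.5 it was 1.38, 2.41 and 3.13 in male replicates 2, 3 and 6 and 1.29 in the female array. At E9.5 it reached 4.37, 3.11, 1.97 and 2.96 in male replicates 1-1, 1-2, 2 and 3 and 7.16, 3.71, 3.84 and 3.30 in the females of the same numbers. Every E9.5 ratio of dre-miR-451 thus exceeded every E5.5 ratio, and of the male E6.5 arrays replicate 2 fell in the E5.5 range and replicates 3 and 6 in the E9.5 range. The share of other probes whose ratios separate the stages was not counted.

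The signal was higher at E9.5 and the partner's lower. Over the 8 arrays of E9.5 dre-miR-451 averaged 396 ± 123 intensity units and its partner 109 ± 28 (SD), against 195 ± 45 and 133 ± 23 over the 6 arrays of E5.5. On the log2 scale the ratio was higher at E9.5 by 1.29 for dre-miR-451 (exact two-sided permutation p 0.000816, 0.00327 adjusted over the 8 tests) and by 1.29 for hsa-miR-451 (exact p 0.00327, 0.00653 adjusted). Between the sexes at E9.5 it differed by −0.52 for dre-miR-451 (exact p 0.229, 0.305 adjusted) and by −0.40 for hsa-miR-451 (exact p 0.457, and the same adjusted). The hsa-miR-451 ratio averaged 1.81 ± 0.38 (SD, n = 6) at E5.5 and 4.75 ± 2.09 (n = 8) at E9.5, with 1 low E9.5 array, male replicate 2 at 1.85.

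The chicken candidate, which keeps the seed but differs at 4 bases near the probe's ends, gave no signal of this kind. Its ratio to its own mismatch partner stayed between 0.93 and 1.09 on all 18 arrays, with a mean of 1.01 ± 0.05 (SD), and it was detected on 0 of them. It therefore failed the filter and was not tested.

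**Figure D4:**
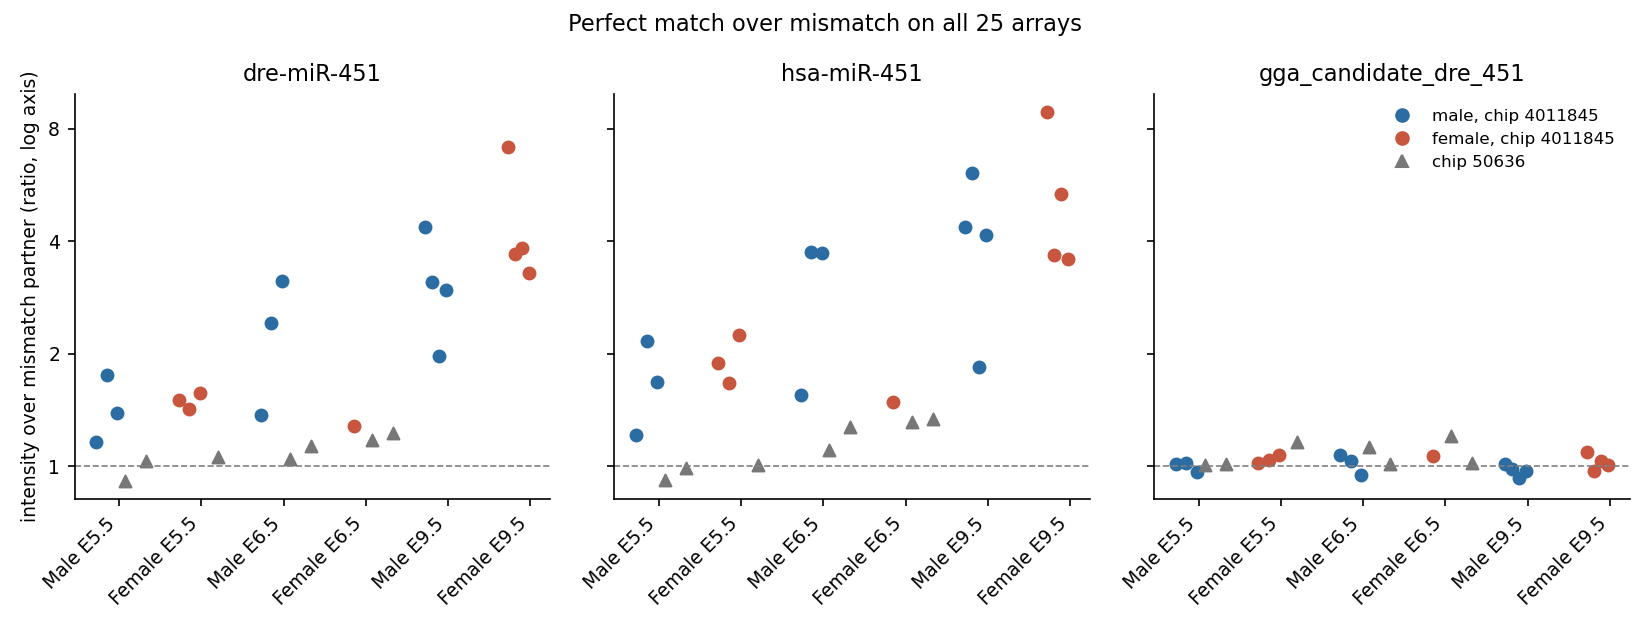
Ratio of perfect match to mismatch partner (y axis, log scale) for dre-miR-451, hsa-miR-451 and the chicken candidate on all 25 arrays, by sex and embryonic day. Each point is 1 array, circles for chip 4011845 and triangles for chip 50636, and the dashed line marks equal intensity. The miR-451 probes reach 7.16 and 8.88 in female E9.5 gonads, while the candidate stays near 1.

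On chip 50636 the miR-451 probes hardly rose above their mismatch partners. The ratio of dre-miR-451 ran from 0.91 to 1.22 and that of hsa-miR-451 from 0.92 to 1.34 over the 7 arrays of E5.5 and E6.5. In both probes the 4 arrays of E6.5 (1.05 to 1.22 and 1.11 to 1.34) included the highest ratios and the male E5.5 arrays the lowest. dre-miR-451 exceeded the negative controls on 1 of these arrays, Female E5.5 replicate 1-2, at 500 units with its partner at 471. Without E9.5 arrays on this chip the rise could not be measured there, and the members failed the filter in a fit of this chip alone. When all 25 arrays were fitted together, with the chip as a term, the differences between E9.5 and E5.5 were 1.43 ± 0.18 for dre-miR-451 (limma adjusted p 5.58e-06) and 1.47 ± 0.23 for hsa-miR-451 (limma adjusted p 3.75e-05), and 62 of 213 tested probes (29.1%) were called.

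The other miRNAs known from blood did not give a matching signal. Of the red blood cell list, dre-miR-144 and hsa-miR-144, probes for the miRNA that shares the primary transcript of miR-451, and hsa-miR-486, another red blood cell miRNA of mammals, were detected on 0 of the 18 arrays. Their median ratios to the mismatch partner were 1.05, 1.03 and 0.89, and none could be tested. Their summed level ran from 175 to 227 normalised intensity units at E5.5 and from 186 to 216 at E9.5, ranges that overlap. The 10 probes of other blood cells (miR-142, miR-150, miR-155 and miR-223, miRNAs of white blood cells) were likewise untested, with 3 of them detected on 1 array each. Their summed level ran from 617 to 1024 at E5.5 and from 567 to 650 at E9.5. What a probe below the negative controls holds is only a bound, and whether these probes bind the chicken miRNAs was not tested.

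Vessel and tissue markers were read on the same arrays. gga-miR-126, a miRNA of endothelium, the lining of blood vessels, was detected on 6 of 18 arrays and differed by 0.35 ± 0.24 between E9.5 and E5.5 (limma adjusted p 0.261), with the summed level of the 2 endothelial probes at 151 to 179 at E5.5 and 107 to 276 at E9.5. Of the gonad list, 3 of 5 probes were tested and none was called (median difference −0.28). Of the neural list, 3 of 8 were tested and none was called (median −0.53). No probe of striated muscle (12) or liver (2) was detected on any of these arrays.

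The mesenchyme and smooth muscle list did move with miR-451. Of its 9 probes 8 were tested, and 7 were called higher and 0 lower at E9.5. Over all 163 tested probes 30 (18.4%) were called higher. The median difference of the list was 1.08 against −0.02 over all tested probes. The 7 called probes read miR-143, miR-145 and miR-199, in part the same miRNA of different species, so they are not 7 separate miRNAs. Of these, dre-miR-143, hsa-miR-143 and mmu-miR-199b passed the filter of 3 arrays only through their detection at E9.5. Their calls higher at E9.5 thus follow in part from the filter and are no independent support for a rise of the list. The highest was dre-miR-199* (1.57 ± 0.19, limma adjusted p 3.14e-05), made from the same precursors as miR-199a, and hsa-miR-145, a miRNA of smooth muscle, rose by 1.21 ± 0.25 (limma adjusted p 0.00183). dre-miR-214 was the exception at −0.32 ± 0.28 (limma adjusted p 0.384). The summed level of the list ran from 1648 to 2432 at E5.5 and from 2966 to 5778 at E9.5, without overlap, and at E9.5 it was higher in males (4263 to 5778) than in most female arrays (2966 to 4490), the reverse of the order of the miR-451 means. In males 5 of the 8 were called higher and in females 3, against 6.75% and 7.98% of all tested probes called in either direction. The part of these cells in the miR-451 result was not tested.

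The profile over the 18 arrays most like that of dre-miR-451, leaving out hsa-miR-451 and counting 159 tested probes, was that of dre-miR-143 (Pearson's r 0.90), a smooth muscle miRNA. hsa-miR-27a (0.86), rno-miR-363-3p (0.86), gga-miR-26a (0.86) and dre-miR-15b (0.85) followed, against a median r of 0.07. All 5 were called higher at E9.5, dre-miR-143 by 1.08 ± 0.18 (limma adjusted p 0.000392) and gga-miR-26a by 1.08 ± 0.22 (limma adjusted p 0.00161), and the arrays share their stages and brightness. Over all 163 tested probes 30 (18.4%) were called higher. The 5 were picked by likeness to dre-miR-451 over these same arrays, so calls in its direction follow in part from the choice. Moreover, dre-miR-143 passed the filter of 3 arrays only through E9.5, where dre-miR-451 was also high. Whether this holds for the other probes named here was not counted. With group means taken off, over 17 arrays, the list changed. gga-miR-218 (0.78), gga_candidate_dre_146b_2or1 (0.76), dre-miR-218a (0.73), dre-miR-30c (0.72) and rno-miR-363-3p (0.72) then stood closest, and dre-miR-143 was no longer among the 5. Of these, gga-miR-218 (0.25 ± 0.18, limma adjusted p 0.292), the 146b candidate and dre-miR-218a were not called between E5.5 and E9.5. These correlations are descriptions over arrays and say nothing of shared function.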

How the data were processed

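Small RNA from pooled gonads was tagged at its guanines with Cy5 and read on 25 arrays of 1 colour each, per the labels' protocols. The authors deposited a median foreground intensity per probe, counts of the spots used and excluded, and a series table of intensity values that on each array follows the scanner medians linearly, with dim probes blank. For the scanner software, the version and settings were not given in the sources used here. Members were the mature probes of the 2 names, and mismatch, control and hairpin probes were left out.

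The 18 arrays of chip 4011845 were analysed first. Scanner medians were background-corrected with normexp (offset 50, all spots), put on the log2 scale and quantile-normalised over 657 mature probes with limma 3.58.1 in R 4.3.3. A probe was detected above the 95th percentile of 7 negative controls and tested where 3 or more arrays detected it (163 probes). limma fitted 6 group means, with Benjamini-Hochberg adjustment within a comparison and a threshold of 0.05. All adjusted p-values are limma's unless a permutation test is named. The fit was tested on simulated data. Exact permutation tests used Python 3.11.15. Precision is limited by how few arrays a group has.

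The members, marker lists and comparisons were chosen with earlier results of these data known. Named probes are the members, the marker lists, and the 5 tested probes with the highest correlation with dre-miR-451, before and after removal of group means. Replicate numbers were checked for pairing by the correlation of deviations from group means over the tested probes. Males and females of E9.5 deviated together in all 4 pairs (r 0.14 to 0.44), as did males of E5.5 and E6.5 in all 3 (r 0.33 to 0.76), while the other comparisons share under 3 pairs. Alternatives were all 25 arrays with the chip as a term, chip 50636 alone, no background correction, 75th percentile scaling, the series table, no filter, the replicate block, arrays 1-1 and 1-2 merged, exposure as a covariate, slide sector as a block, leaving out each array and, added after the data were seen, an exact paired test of the sexes at E9.5.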

Additional observations from a re-analysis of the deposited data

Results flagged for a closer look

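On chip 50636, whose arrays enter no main comparison, dre-miR-451 read 499.75 intensity units on Female E5.5 replicate 1-2, above the limit of 478.05 set by that array's negative controls, and the chicken candidate read 490. The mismatch partners stood at 471.25 and 421, neither above the limit, and the array median was 454.25, the highest of the 25 arrays. hsa-miR-451 was at 452.5 there, below the limit. On chip 4011845 neither member had an array standing apart from the others in male or female E9.5, the groups of 4 arrays, on the normalised level or the ratio to the mismatch partner (8 checks, of 2 probes, 2 measures and 2 groups).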

How the results depend on the processing

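The rise of both probes between E5.5 and E9.5, averaged over the sexes, passed the threshold under all 9 alternatives that could be fitted (dre-miR-451 1.19 to 3.18, hsa-miR-451 1.24 to 2.23) and without any 1 array (1.43 to 1.65 and 1.38 to 1.68). dre-miR-451 in females did so too (1.39 to 3.17, and 1.53 to 1.89). With all 25 arrays, 62, 28, 34, 10, 44 and 3 probes were called for E9.5 against E5.5 (both sexes, males, females), E9.5 against E6.5 (males, females) and the sexes at E9.5, hsa-miR-451 passed for the first in males (1.27) and dre-miR-451 from E6.5 in males (0.87). More probes were tested in that fit. With the series table, dre-miR-451 was lost in males (3.18), hsa-miR-451 in females from E6.5 (3.23), and 0 probes were called in males from E6.5. Merging arrays 1-1 and 1-2, which leaves fewer arrays, gave 24 calls for both sexes and ended the female calls from E6.5 (1.85 for both members, 0 called).

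The 75th percentile scaling gave 23 calls in females from E5.5 and ended the calls from E6.5 (1.67 and 1.60, 0 called). No filter on dim probes lost hsa-miR-451 in females from E5.5 (1.68) and E6.5 (1.98), and called 29 probes in females from E6.5, 12 from E5.5 to E6.5 in females and 13 between the sexes at E6.5. Exposure as a covariate brought hsa-miR-451 past the threshold in males (1.39), with 32 calls in females from E5.5 and 30 from E6.5. The slide sector as a block did so too (1.79, 18 calls, 8 in males from E6.5) and lost both members in females from E6.5 (1.93 and 2.04, 3 called). Chip 50636 alone called 36 probes in females from E5.5 to E6.5, 18 between the sexes at E5.5 and 3 at E6.5, where no member could be tested. The causes were not tested.

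With the replicate block, dre-miR-451 in males fell short (0.99, adjusted p 0.0503), and both members in females from E6.5 (1.37 and 1.13, 0 called), comparisons in which the numbers share under 3 pairs. Where the numbers pair the arrays, the block changed no call of a member, and between the sexes at E9.5 it called 1 probe, dre-miR-214, in place of 0. The exact paired test of the sexes at E9.5, chosen after seeing the data, passed for neither member on the level (p 0.125 and 0.25) or the ratio to the mismatch partner (exact p 0.125 and 0.5).

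Leaving out each array moved the counts of calls to 18 to 53 (both sexes), 6 to 18 (males) and 7 to 24 (females) for E9.5 against E5.5, 0 to 4 (males) and 0 to 34 (females) from E6.5, and 0 to 1 for the sexes at E9.5. The first count fell to 18 without Male E5.5 replicate 2, 23 without Female E5.5 replicate 3 or 4, 24 without Male E9.5 replicate 1-1 or 1-2 and 25 without Female E9.5 replicate 1-1. In males dre-miR-451 ranged from 1.15 to 1.59 and hsa-miR-451 from 1.07 to 1.69, in females hsa-miR-451 from 1.45 to 1.84, and from E6.5 in females the members from 1.79 to 2.16 and 1.74 to 2.14.

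At E5.5 most arrays read both members below their negative controls, so small differences at that stage and at E6.5 were not detectable. The direction of the sex difference at E5.5 and of the female change from E5.5 to E6.5, neither called, turned under some alternatives (−0.95 to 0.07 and −1.26 to 0.34 for dre-miR-451).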
